A study of Mus musculus with 2 samples.

Results

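Thymocytes in G2 and mitosis are developing T cells that have copied their DNA and are about to divide or are dividing. They were chosen here from single-cell RNA of the mouse thymus by 6 genes of late cell division: Ube2c, Cdc20, Ccnb1, Cenpf, Plk1 and Cenpa. A cell was a member if these genes gave at least 8 unique molecular identifiers (UMIs, each 1 captured RNA molecule) in sum. Cells with at least 1 UMI of Ptcra and none of Rag1 or Rag2 were left out. The rule kept 470 of the 3083 cell barcodes, 339 in the wild type library and 131 in the mutant library. The wild type library came from wild type thymocytes. In the mutant library both alleles of the NMe enhancer carried mutated GATA sites, site 1 and site 2. NMe lies far from the proto-oncogene Myc, which it drives in T cell precursors, and NOTCH1 binds it. Strain, age and sex of the animals, and whether animals were pooled, are not given in the sources used here. There was 1 library per genotype, so no test between genotypes exists and every comparison is between these libraries. All intervals are 95% intervals and cover counting error only.

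Cells enter mitosis when cyclin B and CDK1 become active. The genes they need are switched on late in the cycle by the MuvB complex with B-MYB and FOXM1, which act through the promoter element called CHR, often near CCAAT boxes bound by NF-Y. Ube2c and Cdc20 encode parts of the machinery of the anaphase promoting complex, which marks cyclins for destruction, Plk1 is a mitotic kinase, and Cenpa and Cenpf are centromere and kinetochore proteins. In the thymus, division follows beta-selection, when cells that made a T cell receptor beta chain expand while they pass from the CD4-CD8- to the CD4+CD8+ (DP) stage. RAG1 and RAG2, which cut receptor genes, are made before and after this expansion, and PTCRA is the partner of the new beta chain.

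The upstream stretches of 5 genes show the motifs that were searched in promoters of division and DNA replication genes. Each stretch holds the 100 bases before the RefSeq start of the gene in GRCm38.p6, 5′ to 3′ on the gene's strand. Capitals mark the motifs searched on either strand. The CHR was searched as TTTGAA and also in its variant form as TTCGAA. The CCAAT box was searched by the 5 letters of its name. The E2F type motif was searched as TTTGGCGC, TTTCGCGC, TTCCCGCC or TTTCCCGC, of which the last pair can overlap. Ube2c and Cdc20 are genes of the rule, Cdk1 and Top2a are division genes outside it, and Mcm6 encodes a subunit of the replicative helicase. The stretches lie at chr2:164769829-164769928 (+) for Ube2c, chr4:118437344-118437443 (-) for Cdc20, chr10:69352913-69353012 (-) for Cdk1, chr11:99024190-99024289 (-) for Top2a and chr1:128359706-128359805 (-) for Mcm6.
Ube2c: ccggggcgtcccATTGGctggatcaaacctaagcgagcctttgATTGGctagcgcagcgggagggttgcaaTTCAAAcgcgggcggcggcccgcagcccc
Cdc20: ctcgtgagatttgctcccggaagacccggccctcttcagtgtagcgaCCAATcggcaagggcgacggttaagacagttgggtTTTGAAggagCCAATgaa
Cdk1: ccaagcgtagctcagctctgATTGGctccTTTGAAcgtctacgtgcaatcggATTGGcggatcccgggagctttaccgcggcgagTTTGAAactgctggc
Top2a: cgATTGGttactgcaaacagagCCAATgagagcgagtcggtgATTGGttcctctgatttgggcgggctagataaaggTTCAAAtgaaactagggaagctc
Mcm6: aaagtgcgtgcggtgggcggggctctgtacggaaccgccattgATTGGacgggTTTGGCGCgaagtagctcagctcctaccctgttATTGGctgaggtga

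Division genes other than the 6 of the rule often held both elements. Of 133 genes in 6 lists of mitosis genes, 111 matched a promoter window of 250 bases before to 50 after the start. CHR letters were in the windows of 63.1% of them, against 21.7% of all 27025 genes with a window. CHR letters together with a CCAAT box stood in the same window for 50.5% of mitosis genes, 8.61% of all genes and 8.31% of the 4475 matched genes with at least 20 UMIs per 1000000 UMIs (CPM) in members of either library. Outside the mitosis lists, 15.8% of genes with both elements were at least 2-fold higher in wild type members than in S phase cells, which are defined below, against 6.47% of all matched genes. In mutant the shares were 20.4% and 11.1%. Mitosis genes without CHR letters were at least 2-fold higher in 50% of cases in wild type and 64.1% in mutant. With CHR letters the shares were 70.6% and 82.6%. Genes with E2F type letters were at least 2-fold lower in 6.55% and 7.84% of cases, against 3.02% and 6.49% of all matched genes. Whether the motifs play a part in the contrast was not tested. Of 51 DNA replication genes, Mcm3 and Hells included, 43 matched, and 55.8% of those held E2F type letters, against 11.7% of mitosis genes and 4% of all genes. CHR letters were in 20.9% of the replication genes. These are matches of letters and not sites shown to be bound.

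Members were 25.3% of kept wild type barcodes (339 of 1341, interval 22.97 to 27.7) and 7.57% of kept mutant barcodes (131 of 1731, interval 6.37 to 8.92). The difference was -17.7 percentage points (-20.4 to -15.1). The rule counts raw UMIs and so depends on depth. Median depth over all kept barcodes was 3329 UMIs in wild type and 2596 in mutant. With each cell thinned to 1500 UMIs and a threshold of 3, 288 of 1341 wild type and 134 of 1634 mutant cells passed. The wild type share was then 2.62 times the mutant share, against 3.34 times without thinning. Since the rule chose these cells by expression, the shares are a description.

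Within the gate, the libraries were of like depth. Members had a median of 6945 UMIs and 2329 genes in wild type, and 7446 UMIs and 2577 genes in mutant. Their median sum over the 6 genes was 21 and 27 UMIs. Just inside the threshold, at 8 or 9 UMIs, lay 44 wild type and 13 mutant cells. Just outside it, at 6 or 7 UMIs, lay 35 and 27. Another 14 wild type and 28 mutant cells passed the sum but were left out for Ptcra without Rag. The libraries shared 1 barcode, which was no member. Scrublet called 1 member a doublet in each library, and doublets were not removed.

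The label was set against markers, as a description, since all comparison cells were chosen for few UMIs of the rule's genes. All 15 G2 and mitosis markers outside the rule, among them Top2a, Cdk1, Aurkb, Birc5 and Bub1, were higher in members than in S phase cells and than in resting cells. S phase cells were defined by a sum of at least 8 UMIs of Mcm3, Hells, Gins2, Ccne2, Mcm5 and Mcm6 with at most 2 UMIs of the 6 division genes (46 wild type, 33 mutant cells). Resting cells had none of the division genes, at most 1 UMI of the S phase genes, and at least 1 UMI each of Rag and Cd8b1 (220 and 347 cells). At least 1 UMI of a CD3 gene was found in all 339 and all 131 members. The 6 mitosis lists summed to 51087 CPM in wild type and 59260 CPM in mutant members. In S phase cells they summed to 26246 and 21446 CPM, and in resting cells to 7123 and 8669 CPM.

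Markers of B cells, myeloid cells, erythroid cells and stroma were low, with exceptions in single cells. UMIs of the innate-like T and NK list were found more widely, but came mostly from 1 gene, Gzma. Gzma gave 192 of the 205 CPM of that list in wild type members and 400 of 451 CPM in mutant members. At least 5 UMIs of the list were found in 43 of 339 wild type and 26 of 131 mutant members. Cd79a, of the B cell receptor, had 0 UMIs in wild type members and 5 in mutant members. The B cell list as a whole summed to 41.3 CPM in wild type and 140 CPM in mutant members. Of the 9 genes of the thymic epithelium and stroma list, 3 were at 0 in both, the epithelial genes Foxn1, Psmb11 and Krt5. That list as a whole summed to 67.1 and 54.8 CPM. At least 20 UMIs of the B cell or myeloid lists were found in 0 wild type and 2 mutant members. One of these mutant members held 79 B cell and 150 myeloid UMIs beside 80 CD3 UMIs. Each group of S phase cells also held 1 cell with at least 20 such UMIs, and that wild type cell held 492 B cell UMIs.

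The contrast with S phase cells showed the division machinery higher and the replication machinery lower in both libraries. The mitosis genes came with the rule's genes by choice of cells, so their contrast describes the cells and supports nothing. At least 2-fold higher in members of both libraries were 114 of 2737 genes (4.17%), and at least 2-fold lower were 30 (1.1%). Taken alone, wild type had 6.55% of 5559 genes at least 2-fold higher and 3.08% at least 2-fold lower, and mutant 11.2% and 6.62% of 6009 genes. The S phase cells of the libraries differed in stage genes. A Rag UMI was found in 35 of 46 wild type and 11 of 33 mutant S phase cells, against 295 of 339 and 90 of 131 members. The part of stage in the contrast was not tested. Of the mitosis genes measured, 114 of 128 were higher in wild type members and 121 of 130 in mutant members, with median log2 ratios of 1.36 and 1.99. All genes measured had medians of 0.07 and 0.08, with 55.4% and 55.3% higher.

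Genes of the spindle and of cell cleavage stood highest above S phase cells. The spindle and motor list had medians of 1.94 and 2.80, and all 26 measured genes were higher in wild type. Cytokinesis and passenger genes had medians of 1.97 and 2.75, with 16 of 16 higher in both. Mitotic entry genes followed with 1.70 and 2.64. Checkpoint and APC/C genes, at 1.08 and 1.18, kinetochore genes, at 0.78 and 1.32, and chromosome condensation genes, at 0.80 and 1.24, were closer to S phase levels. The order of the upper 3 lists and of the lower 3 lists differed between the libraries.

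Single genes of this contrast differed in how much S phase cells held. Tuba1c, an alpha tubulin, was at 270.4 CPM in wild type and 428 CPM in mutant members and had 2 and 1 UMIs in S phase cells. Fam64a, a gene of chromosome segregation, was at 117 and 206 CPM in members and had 1 and 0 UMIs in S phase cells. Arl6ip1, which encodes a protein of the endoplasmic reticulum, was at 1131 and 1485 CPM against 121 and 164 CPM. Ccnb2, a B-type cyclin, had log2 ratios of 3.24 (2.62 to 3.93) and 5.10 (3.87 to 6.73). Kpna2, a nuclear import factor, had 3.44 (2.59 to 4.44) and 4.90 (3.54 to 6.78). The other genes named by size were Depdc1a, Kif2c, Hmmr, Cenpe, Cdkn3, Cdc25b and Cdca3, all of them division genes.

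**Figure D1:**
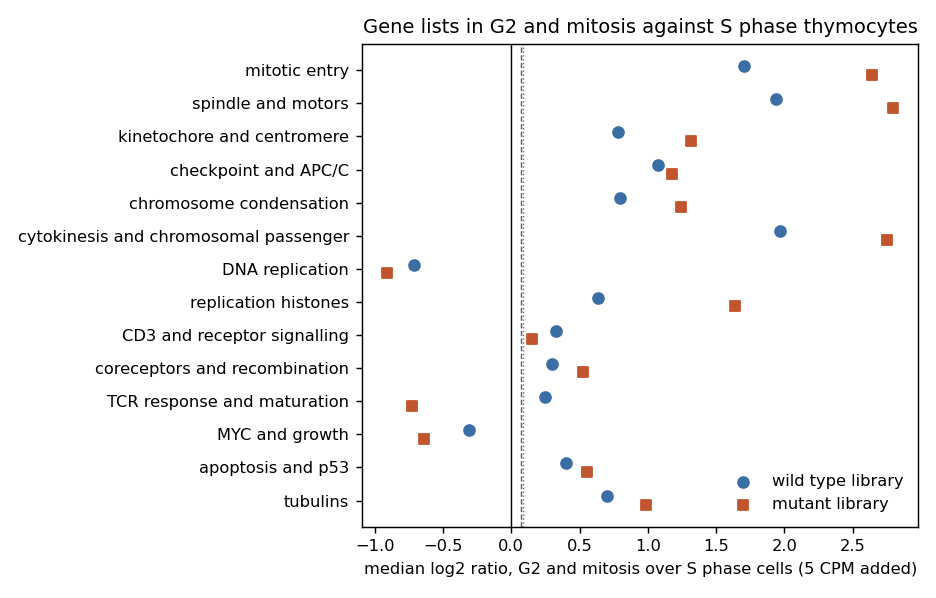
Median log2 ratio of G2 and mitosis cells over S phase cells (x axis, 5 CPM added to both) for each gene list with at least 6 measured genes in both libraries (y axis). Circles are the wild type library and squares the mutant library, and dashed and dotted lines mark the medians of all genes. The 6 mitosis lists lie between 0.78 and 2.80 and DNA replication lies at -0.71 and -0.91.

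Replication genes were lower in members, a contrast that the choice of S phase cells by such genes sets in part. Of 44 measured replication genes, 41 were lower in wild type and 39 in mutant members. Ung, which removes uracil from DNA, was at 16.9 and 8.50 CPM in members and at 147 and 248 CPM in S phase cells. E2f1, a transcription factor of S phase entry, had log2 ratios of -2.23 (-2.73 to -1.71) and -3.74 (-4.73 to -2.84). Mcm2, Dtl, Tcf19, Cdc6 and Zmynd19 were the others lowest in both libraries, together with H2-Aa. H2-Aa is a class II histocompatibility gene with 96 UMIs in wild type and 14 in mutant S phase cells. Without the 1 cell in each library rich in B cell UMIs, 1 UMI was left in both.

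Replication and mitosis genes differed between bands of gate UMIs, which are the values of the rule and so a description. In wild type, cells with 8 to 11 gate UMIs held 9882 CPM of replication genes, those with 12 to 23 held 8931 CPM and those with 24 or more held 6373 CPM. In mutant the 3 values were 10278, 8627 and 5900 CPM. The summed mitosis lists ran the other way, from 41271 to 53896 CPM in wild type and from 46158 to 63940 CPM in mutant. Median depth was 5955 and 5209 UMIs in the lowest band and 8011 and 7963 in the highest. The replication gene share is thus lowest in the deepest band of both libraries.

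Histone RNA varied widely between members. Replication histone mRNAs mostly lack the poly(A) tail on which this assay relies, so their counts are a partial view. Hist1h2ap, a histone H2A gene, was at 16022 CPM in wild type and 14838 CPM in mutant members and made up most of the list. Histone genes gave under 10 UMIs per 10000 in 36 of 339 wild type members (10.6%, interval 7.55 to 14.4) and in 14 of 131 mutant members (10.7%, 5.97 to 17.3). They gave 50 or more in 246 (72.6%, 67.5 to 77.2) and 93 (70.99%, 62.4 to 78.6). The 2 libraries' intervals overlapped in both bands. Ccna2, Top2a, Mki67 and Cdk1 summed to 1019 and 828 CPM in the low band and to 2620 and 2744 CPM in the high band. The middle band, from 10 to under 50, held 57 wild type and 24 mutant members, with 1246 and 2037 CPM of these genes. Other genes differed less between bands. Cdc20, Ccnb1 and Plk1, genes of the rule, summed to 833, 1019 and 895 CPM from low to high band in wild type. In mutant they summed to 1301, 1893 and 1178 CPM.

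Most division genes differed little between mutant and wild type members. Of 129 measured mitosis genes 115 had a higher level in mutant, with a median log2 ratio of mutant over wild type of 0.29, and 0 were past 2-fold in either direction. Among all 5526 genes with at least 20 CPM, 3897 were higher (70.5%) and 29.5% lower, with a median of 0.18. At this level 2.26% were at least 2-fold higher and 0.507% at least 2-fold lower. This shift of all genes was 0.03 with ribosomal protein and mitochondrial genes taken out of the total and -0.02 with median of ratios scaling. List medians are therefore also read against it.

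Relative to all genes, the spindle list stood at 0.19, cytokinesis at 0.18, checkpoint and APC/C at 0.17, kinetochore at 0.14, mitotic entry at 0.10 and condensation at -0.05. In members of 4000 to 12000 UMIs the values for spindle, cytokinesis and mitotic entry were -0.02, -0.04 and -0.004, so these small upward shifts were not seen in that depth range (219 and 83 members). Mki67, the proliferation antigen, was at 321 CPM (301 to 343) and 328 CPM (294 to 364). Top2a, which untangles sister chromatids, was at 916 CPM (881 to 953) and 989 CPM (930 to 1051), and its ratio of 0.11 changed sign under 4 alternatives. Birc5, of the chromosomal passenger complex, was at 908 CPM and 1078 CPM.

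A few division genes stood further apart. Aurka, a centrosomal kinase, was at 139 CPM in wild type and 218 CPM in mutant, a log2 ratio of 0.65 (0.41 to 0.89). Kif20a, a kinesin of the midzone, had 0.88 (0.49 to 1.27) and Fam64a 0.81 (0.56 to 1.06). Cenph, a constitutive centromere protein, was lower, at 74.0 and 49.1 CPM with a ratio of -0.59 (-1.06 to -0.15). Each interval excluded 0, and none of these genes was past 2-fold.

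DNA replication genes stood below the other genes in mutant members. Of 45 measured, 28 were lower and 17 higher, the median was -0.20, and relative to all genes it was -0.37. With 5 CPM added, 1 gene, E2f1, was past 2-fold lower. E2f2, an activating E2F factor, was at 172 CPM in wild type and 85.0 CPM in mutant, a log2 ratio of -1.02 (-1.36 to -0.69). Pcna, the sliding clamp, was at 469 and 320 CPM, with a ratio of -0.55 (-0.73 to -0.38). Rrm1, a subunit of ribonucleotide reductase, went the other way with 126 and 215 CPM, a ratio of 0.77 (0.53 to 1.02). Pcna was named after its value was seen.

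**Figure D2:**
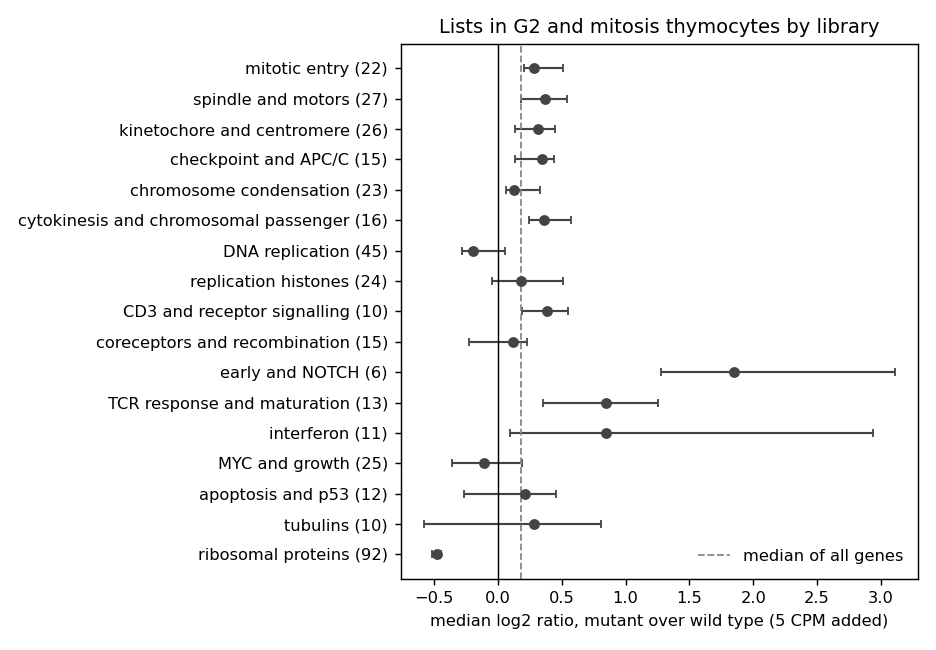
Median log2 ratio of mutant over wild type in G2 and mitosis thymocytes (x axis, 5 CPM added) for gene lists with at least 6 measured genes (y axis, number of genes in parentheses). Bars are order-statistic 95% intervals of the median over genes, and the dashed line marks the median of all genes, 0.18. The early and NOTCH median of 1.85 rests on 6 genes, 4 of which reached 20 CPM in mutant only, and ribosomal proteins lie at -0.48.

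Genes past 2-fold were few. At least 2-fold higher in mutant were 70 of 3068 genes (2.28%) and at least 2-fold lower 11 (0.359%). The counts were 60 and 35 without ribosomal protein and mitochondrial genes in the total, and 43 and 38 with median of ratios scaling. Of the 13 genes of the early and NOTCH list 6 reached 20 CPM, and 4 of these did so in mutant only, so that the limit set their direction. Notch1 and Myl10 reached it in both libraries and were past 2-fold higher. The list of coreceptor and recombination genes had 2 higher and 1 lower of 15 past 2-fold.

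Coreceptor RNA was lower in mutant members. Cd4, the coreceptor for class II molecules, had 429 UMIs in wild type members, 154 CPM (140 to 169). In mutant members it had 46 UMIs, 43.4 CPM (31.8 to 57.9), which gives a log2 ratio of -1.83 (-2.30 to -1.39). Cd8a was at 901 CPM and 519 CPM, with a ratio of -0.79 (-0.93 to -0.66). Cd8b1 was at 967 and 771 CPM, with a ratio of -0.33 (-0.44 to -0.21). The Cd4 and Cd8 intervals of the 2 libraries did not overlap. Cells with UMIs of both Cd4 and a Cd8 gene were 219 of 339 wild type members (64.6%, interval 59.3 to 69.7) and 27 of 131 mutant members (20.6%, 14.04 to 28.6). Cells with neither were 4 (1.18%) and 17 (12.98%). With members thinned to 4000 UMIs, leaving out 65 and 25 shallower cells, a Cd4 UMI was found in 47.4% (41.4 to 53.5) and 11.3% (5.99 to 18.9). No cell type that should lack Cd4 was gated here, so the share that free RNA gives was not measured.

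Resting cells, which were chosen with Rag and Cd8b1 UMIs, had a Cd8a ratio of 0.24 (0.11 to 0.38) and a Cd8b1 ratio of 0.50 (0.40 to 0.60). Their Cd4 ratio was -0.30 (-0.53 to -0.06). The difference between members and resting cells was not tested.

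Early genes were higher in mutant members. Il2ra, the CD25 chain of CD4-CD8- cells, had 20 UMIs in wild type members (7.18 CPM) and 58 in mutant members (54.8 CPM). Its log2 ratio was 2.93 (2.18 to 3.74), and 1 wild type cell held 40% of the 20 UMIs. Dtx1 and Hes1, targets of NOTCH signalling, had 9 UMIs each in wild type members against 70 and 60 in mutant members, with ratios of 4.35 (3.35 to 5.54) and 4.13 (3.11 to 5.33). Notch1 itself was at 60.0 and 167 CPM. One mutant cell held 21.7% of the Hes1 UMIs. Without thinning, 8 of 339 wild type members (2.36%) and 47 of 131 mutant members (35.9%) held a Dtx1 UMI. Thinned to 4000 UMIs, a Dtx1 UMI was found in 0 of 274 wild type members (0%, which allows a share of cells with a UMI of up to 1.09% by 3 counts) and in 26 of 106 mutant members (24.5%, 16.7 to 33.8).

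Resting cells showed these genes at different levels between the libraries too. There Dtx1 was at 10.8 CPM in wild type and 63.9 CPM in mutant, and Il2ra at 14.3 and 62.6 CPM. Thinned to 1500 UMIs, Il2ra was found in 1.47% and 5.34% of members and in 0.909% and 3.87% of resting cells; the intervals of members and resting cells overlapped within each library. Median depth before thinning was 6945 and 7446 UMIs in members and 2165 and 1876 in resting cells.

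Transcription factors of the T lineage differed in both directions. Gata3, the factor that reads GATA sites in these cells, was at 77.9 CPM (67.9 to 89.0) in wild type members. Mutant members had 208 CPM (181 to 237), for a log2 ratio of 1.41 (1.14 to 1.69). Lef1, a partner of beta-catenin, was at 108 and 475 CPM, with a ratio of 2.14 (1.93 to 2.35). Its relative Tcf7 was at 932 and 953 CPM. Id3, an inhibitor of E proteins, was at 195 and 89.7 CPM, with a ratio of -1.12 (-1.45 to -0.80).

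**Figure D3:**
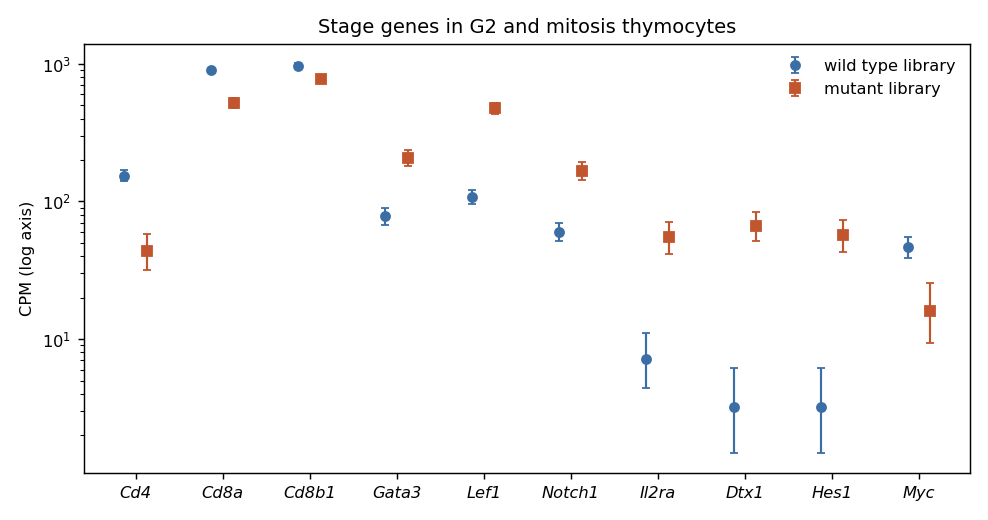
Levels of 10 genes of thymocyte stage, NOTCH signalling and Myc in G2 and mitosis thymocytes (y axis, CPM, log scale), by library. Points are levels over the summed members and bars exact Poisson 95% intervals. Cd4, Cd8a, Cd8b1 and Myc lie lower in mutant and the other 6 genes higher.

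Rag UMIs are a description, since the rule used Rag to leave out 14 wild type and 28 mutant cells. A Rag1 or Rag2 UMI was found in 295 of 339 wild type members (87.0%, interval 82.97 to 90.4) and in 90 of 131 mutant members (68.7%, 60.02 to 76.5), a difference of -18.3 percentage points (-27.3 to -9.99). Among members with Rag, Cd4 was still at 159 CPM (144 to 176) in wild type and 50.6 CPM (35.8 to 69.4) in mutant. Lef1 was at 109 and 470 CPM there and Dtx1 at 2.81 and 71.9 CPM. In members without Rag, Cd4 was at 110 and 26.0 CPM. Lef1 was at 96.0 and 487 CPM and Dtx1 at 6.86 and 52.0 CPM in those cells. The direction of these 3 genes was the same with and without Rag UMIs. Cd8a was at 928 and 632 CPM in members with Rag and at 665 and 244 CPM in those without. Cd8b1 was at 1013 (974 to 1053) and 918 CPM (851 to 989) with Rag. Without Rag it was at 569 (486 to 663) and 413 CPM (344 to 491). The Cd8b1 intervals of the libraries overlapped in both sets of cells.

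Myc, the gene that NMe regulates, was lower in mutant members. The 339 wild type cells held 129 Myc UMIs (46.3 CPM) and the 131 mutant cells 17 (16.0 CPM), for a log2 ratio of -1.53 (-2.35 to -0.79). One cell held 17.6% of the mutant UMIs. Resting cells held 9 and 4 Myc UMIs, for a ratio of -1.60 (-3.75 to 0.24). The mutated sites lie outside the transcript, so the level does not check which library carries the mutation. Over the MYC and growth list, 11 of 25 measured genes were higher and 14 lower, with a median of -0.11, or -0.29 relative to all genes. With 5 CPM added, Myc alone was past 2-fold, and Bop1 was at 0.90. Npm1, which encodes a nucleolar chaperone, was at 1515 and 956 CPM, with a ratio of -0.66 (-0.76 to -0.56). Gnl3, nucleostemin, had -0.99 (-1.57 to -0.46), and Bop1, of ribosome assembly, had 1.07 (0.44 to 1.70). In members of 4000 to 12000 UMIs the list stood at 0.06 relative to all genes and Gnl3 at 0.22, so neither direction held in that depth range.

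Ribosomal protein RNA took a smaller share of mutant members. Of 92 measured ribosomal protein symbols 92 were lower, against 29.5% of all genes, and 0 were past 2-fold. These symbols include pseudogenes, so they are not all separate ribosomal protein genes, and not every interval excluded 0. Their median was -0.48, or -0.66 relative to all genes. Ribosomal protein symbols made up 26.6% of all UMIs of wild type members and 18.95% of mutant members. Per cell, the median was 21.9% (quartiles 17.1 and 29.4) in wild type and 16.2% (13.04 and 20.97) in mutant, and the ranges of 7.82 to 44.4% and 7.75 to 33.3% overlapped widely. The share was also smaller in mutant S phase cells, with medians of 31.9% and 25.7%, and in resting cells, with 26.3% and 20.5%. Rplp0, of the ribosomal stalk, was at 5660 and 3486 CPM, a ratio of -0.70 (-0.75 to -0.65). Rplp0 was named after its value was seen. Malat1, a nuclear RNA, was at 9726 and 12618 CPM in members, and its part in the difference was not tested.

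**Figure D4:**
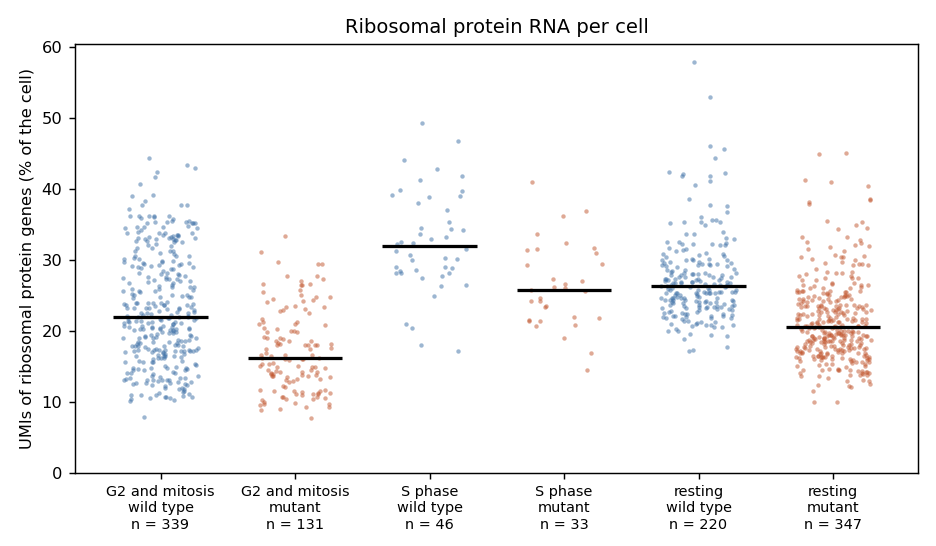
Share of each cell's UMIs that came from ribosomal protein genes, pseudogenes included (y axis, percent), in G2 and mitosis, S phase and resting thymocytes of both libraries (x axis). Points are cells and black lines medians. The mutant median lies below the wild type median in all 3 groups, 16.2% against 21.9% in G2 and mitosis.

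The genes furthest apart by size included several outside the stage lists. Ifi202b, an interferon-inducible DNA sensor gene, had 189 UMIs in mutant members against 2 in wild type members, for a log2 ratio of 7.96 (6.08 to 11.01). Ifi203, of the same gene family, was at 18.0 and 171 CPM. Of 19 interferon genes 11 reached 20 CPM, 6 of them in mutant only, so that the limit set the direction of those 6. Ifi202b and Ifi203 were among these 6. Past 2-fold higher were 5 of the 11, against 2.26% of all genes, a count that the limit sets in part. Among the others, Bst2, at 70.7 and 71.7 CPM, and Ifi27l2a, at 105 and 112 CPM, were alike in level. Over the alternative settings the Bst2 ratio ran from -0.18 to 0.14, but that of Ifi27l2a from -0.38 to 1.44. Cd200, a membrane glycoprotein, had 8 and 77 UMIs, and Ctsl, the protease cathepsin L, was at 97.0 and 554 CPM with a ratio of 2.51 (2.30 to 2.73). Bcl2, which blocks apoptosis, was at 23.3 and 117 CPM with 2.33 (1.88 to 2.78). Clec12a, Ctse and H2-Q7 completed the highest genes, with ratios of 5.20, 4.06 and 2.56. Several of these differences were also present in resting cells. There the ratio was 2.77 (1.87 to 3.82) for Cd200, 2.63 (2.34 to 2.94) for Ctsl and 1.30 (0.74 to 1.89) for Ifi203, and Ifi202b had 0 and 19 UMIs. Bcl2 had -0.04 (-0.51 to 0.44) in resting cells and 3.23 (2.07 to 4.62) in S phase cells.

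The B cell list summed to 41.3 CPM in wild type and 140 CPM in mutant members, and the myeloid list to 10.05 and 161 CPM. Cd74, the invariant chain of class II molecules, also ranked among the highest, at 2.51 and 64.2 CPM. One mutant cell held 75% of its UMIs. Without the 2 mutant members rich in B cell or myeloid UMIs its ratio was 0.64 in place of 4.67, and in members of 4000 to 12000 UMIs it was -0.25. The myeloid genes C1qa, C1qb, C1qc, Fcer1g and Lyz2 had 24 to 32 UMIs in mutant and 2 to 5 in wild type members, and all 5 reached 20 CPM in mutant only. Without those 2 cells C1qa and C1qc had 0 mutant UMIs, Fcer1g and Lyz2 1 each and C1qb 2. With 5 CPM added, none of the 5 genes was then past 2-fold.

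Lower in mutant members were genes of several kinds. Phlda1, a pleckstrin homology domain gene, was at 96.2 CPM (85.1 to 108) and 16.0 CPM (9.35 to 25.7), with a ratio of -2.58 (-3.39 to -1.88), and 1 cell held 35.3% of the mutant UMIs. Dnajc15, a mitochondrial co-chaperone gene, was at 299.8 and 84.0 CPM, with -1.84 (-2.17 to -1.52). Ccr9, the receptor for the thymic chemokine CCL25, was at 225 and 99.1 CPM, with -1.18 (-1.50 to -0.88). Epsti1, Hist1h4i, Amd1, Fam78a, Capn3 and Erdr1 had ratios between -1.90 and -1.11. Resting cells had ratios of -2.10 for Phlda1, -2.50 for Dnajc15 and -3.10 for Epsti1, so these differences were not particular to members. Ratios in resting cells were smaller for Ccr9 (-0.37), Amd1 (-0.35) and Fam78a (-0.23).

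Most CD3 genes and genes of maturation had a higher level in mutant members, as did 70.5% of all genes. Of 10 CD3 and receptor signalling genes 9 were higher and 0 past 2-fold. Relative to all genes the median of that list was 0.21 (0.013 to 0.37). Cd3e was at 473 and 719 CPM, Cd3g at 930.4 and 1333 CPM, and Lck, the kinase bound to the coreceptors, at 1004 and 1366 CPM. In the list of receptor response and maturation, 13 of 20 genes reached 20 CPM, 1 of them in mutant only. Of the 13, 12 were higher, 5 of them past 2-fold, against 2.26% of all genes, and Id3 was past 2-fold lower. B2m, the light chain of class I molecules, was at 496 and 1096 CPM with 1.14 (1.03 to 1.26), and H2-D1, a class I heavy chain, at 143 and 395 CPM. Klf2, a factor of mature T cells that leave the thymus, was at 21.9 and 82.1 CPM. Cells with at least 20 UMIs of the innate-like T and NK list were 3 in wild type and 5 in mutant members, and Gzma, a granzyme of that list, was at 192 and 400.3 CPM. Their part in the maturation genes was not tested.

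The counts of tubulin and apoptosis genes are to be read against the 70.5% of all genes that were higher. Of 10 measured tubulins 8 were higher and 2 lower, and 0 were past 2-fold with 5 CPM added. With nothing added, Tubb3 had a ratio of 1.16 (0.38 to 1.93). Tuba1b was at 3306 and 4228 CPM, and Tubb2b at 213 and 118 CPM. Of 12 apoptosis and p53 genes 8 were higher, 1 of them, Bcl2, past 2-fold. Replication histones stood at the median of all genes, with Hist1h3c past 2-fold higher at 29.8 and 100.1 CPM and Hist1h4i past 2-fold lower. The 3 measured dissociation stress genes, Jund, Btg2 and Junb, were all lower by less than 2-fold, and their list summed to 708 and 646 CPM. Of the erythroid list 0 genes reached 20 CPM, and of the stroma list only Pecam1 did, at 53.9 and 34.9 CPM.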

How the data were processed

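Polyadenylated RNA of single thymocytes was captured on 10x Chromium 3' v2 chemistry after 5000 cells were loaded per sample, per the labels' protocols. Each deposited file holds a raw count of UMIs for every barcode and for 27933 gene symbols. The submitters' processing notes name Cell Ranger and mm10 without a version, and the filter that chose barcodes is not given in the sources used here. Libraries held 6638880 (wild type) and 6364506 (mutant) UMIs. The members, lists and tests were chosen with earlier results of these data known.

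Barcodes with at least 400 genes and at most 10% mitochondrial UMIs were kept (1341 of 1346 and 1731 of 1737). UMIs were summed over cells and divided by the total (CPM). Levels have exact Poisson intervals, ratios exact conditional intervals, shares have Clopper-Pearson and their differences Newcombe intervals. No test was run, since each group has 1 library. Ratios of single genes have nothing added. Counts of all genes past 2-fold add 5 CPM and use genes with at least 50 CPM in a library and 20 UMIs over both libraries, without the 9 genes of the rule. List medians and counts within lists also add 5 CPM and use genes with at least 20 CPM in a library. A share of 0 is bounded by 3 counts. Lists with under 6 such genes get no median.

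Ribosomal protein, mitochondrial, sex-linked, haemoglobin, receptor segment and unnamed genes were not named by size. The others were named by size: the 12 highest and 12 lowest ratios between libraries, the 12 highest and 8 lowest against S phase cells in both libraries, and in each of 22 lists the 3 most abundant, 2 highest and 2 lowest. The 6 rule genes, Myc, Gata3, Cd4, Cd8a, Cd8b1, Il2ra, Mki67, Top2a, Cd3e, Cd3g and Lck were given regardless. Cd79a, Foxn1, Psmb11, Krt5, Pcna, Rplp0 and Malat1 were chosen after their values were seen, and Aurkb, Cdk1 and Bub1 are markers of the cells. Chosen after values were seen were the reading of list medians against the median of all genes, the order-statistic interval of list medians, the bands of gate and histone UMIs, thinning to 4000 UMIs, classes by coreceptor and Rag UMIs, the rule for the closer look at single genes, the comparison of promoters with expressed genes, and the alternative without cells rich in B cell or myeloid UMIs. On simulated counts at the members' depth, 100% of 50 genes made 4-fold higher and 86% of 50 made 4-fold lower were past 2-fold, against 0% of 2639 unchanged genes. The simulation drew counting error alone, without differences between cells or libraries. Its 0% therefore says nothing about how often unchanged genes pass 2-fold between 2 real libraries. Promoter windows came from RefSeq (GRCm38.p6), matched by symbol or synonym. Python 3.11.15, NumPy 2.4.6, SciPy 1.17.1, Scanpy 1.11.5 and Matplotlib 3.10.9 were used.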

Additional observations from a re-analysis of the deposited data

Results flagged for a closer look

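Over 427 genes, 29 comparisons (chosen by a rule set after seeing the data) showed mutant over wild type ratios of opposite sign in members and in S phase or resting cells, with both counting intervals off 0. The differences were not tested. Each pair gives the log2 ratio in members and then in the other cells.
Division, chromatin and histone genes, with Dntt, were higher in mutant members and lower in mutant S phase cells: Top2a 0.11 and -0.63, Ccnb2 0.30 and -1.56, Cdca3 0.29 and -1.24, Ccna2 0.25 and -0.80, Cks2 0.27 and -1.12, Spc25 0.35 and -1.03, Hmgb1 0.12 and -0.49, Hmgb2 0.12 and -0.26, Hmgn2 0.19 and -0.40, H2afx 0.27 and -0.70, H2afz 0.14 and -0.38, Birc5 0.25 and -0.86, Hist1h2ae 0.57 and -1.78, and Dntt 0.14 and -0.48. S phase cells were chosen for at most 2 UMIs of the rule's genes, and 35 of 46 wild type but 11 of 33 mutant ones held a Rag UMI. Ldha, at -0.25 and 0.53, went the other way. The class II genes gave Cd74 4.67 and -3.26, H2-Aa 3.64 and -2.27, and H2-Ab1 0.81 and -2.77. Without the cells rich in B cell or myeloid UMIs, S phase cells held 1 and 0 UMIs of Cd74, 1 and 1 of H2-Aa, and 7 and 2 of H2-Ab1 (wild type and mutant), and members 7 and 4, 4 and 3, and 54 and 22. Lyz2 had 3.66 in members and 8 wild type and 0 mutant UMIs in S phase cells.
Against resting cells, genes higher in mutant members and lower in mutant resting cells gave Smc4 0.33 and -0.31, Birc5 0.25 and -3.29, Tuba1b 0.35 and -0.52, and Tubb5 0.21 and -0.42. Genes of the DP stage went the other way and gave Cd8a -0.79 and 0.24, Cd8b1 -0.33 and 0.50, Arpp21 -0.20 and 0.40, and Satb1 -0.23 and 0.22, where resting cells were chosen for Cd8b1 and Rag UMIs. The marker genes of other cells gave Tyrobp 3.64 and -2.56, and Nkg7 2.39 and -1.29. Without the 2 mutant members rich in B cell or myeloid UMIs, wild type members held 4 Tyrobp UMIs and mutant members 0.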

How the results depend on the processing

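No paired analysis was possible because each group has 1 library, and leaving out a replicate was not possible for the same reason. The lower share of members in mutant kept its direction under all 9 alternatives. It was -13.3 percentage points with a threshold of 12 UMIs, -11.5 in members of 4000 to 12000 UMIs and -13.3 with every cell thinned. Genes at least 2-fold higher numbered 43 with median of ratios scaling and 125 with genes of at least 20 CPM, against 70. Genes at least 2-fold lower numbered 18 in members with Rag, 35 without ribosomal protein and mitochondrial genes in the total, 38 with median of ratios scaling, 17 as a mean over members and 28 with genes of at least 20 CPM, against 11. The limit of 20 CPM tests more genes, and for the others the cause was not tested. Relative to all genes, in members of 4000 to 12000 UMIs, mitotic entry stood at -0.0041, spindle and motors at -0.018, checkpoint and APC/C at -0.049, chromosome condensation at -0.12, cytokinesis at -0.038, MYC and growth at 0.061 and ribosomal proteins at -0.60. As a mean over members mitotic entry stood at 0.017 and ribosomal proteins at -0.55. Ribosomal proteins stood at -0.59 with the Ptcra cells kept and -0.57 with no limit on level, which gave 0.85 for the early and NOTCH list. The cause was not tested. The 18 alternative values of the contrast with S phase cells kept their direction.
Of 1489 alternative ratios of 136 genes with UMIs in both libraries, 22 changed sign, and the cause was not tested. With members of 4000 to 12000 UMIs they were Cd74 (-0.25), Gnl3 (0.22), Top2a (-0.14) and Ube2s (-0.032). As a mean over members they were Cenpe (-0.010), Top2a (-0.15) and Ube2s (-0.053). With median of ratios scaling they were Dntt (-0.068), H2afz (-0.067), Hmgb1 (-0.087), Hmgb2 (-0.081), Stmn1 (-0.056), Top2a (-0.095) and Ube2s (-0.12). Without ribosomal protein and mitochondrial genes in the total they were Dntt (-0.017), H2afz (-0.016), Hmgb1 (-0.035), Hmgb2 (-0.030), Stmn1 (-0.0053), Top2a (-0.043) and Ube2s (-0.068). Without the 2 cells rich in B cell or myeloid UMIs Lyz2 was at -0.88. Another 7 ratios had no value because 1 library was left with 0 UMIs: C1qa, C1qc, Fcer1g and Lyz2 (0 in mutant) and Clec12a (0 in wild type) in members of 4000 to 12000 UMIs, and C1qa and C1qc (0 in mutant) without those cells. Leaving out such S phase cells was added after seeing the data. Depth limits genes of few UMIs, such as Ifi202b in wild type and Myc in mutant.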
